A study of Homo sapiens with 9 samples.

Results

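The genes described here are the zinc finger genes of human chromosome 19 that carry a ZNF number as their name. They were taken as the array probe sets placed on chromosome 19 whose single annotated symbol is ZNF followed by a number, with at most 1 letter after it. The rule found 244 probe sets for 242 genes, out of 22465 genes measured. ZNF77 and ZNF529 each had 2 probe sets, and the one with the higher mean was used. No measured value entered the choice, apart from this pick between 2 probe sets.

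Most of these genes encode transcription factors of the C2H2 type, in which a row of zinc-binding fingers reads DNA, and many add a KRAB domain at the other end of the protein. A KRAB domain binds TRIM28, a scaffold protein that brings in the histone methyltransferase SETDB1, the HP1 proteins and the NuRD deacetylase complex, and so represses the bound site. The genes lie in tandem clusters along chromosome 19 that arose by repeated duplication, and many of the proteins bind transposable elements. Because the genes are duplicates of each other, probes for one member can also bind transcripts of a near-identical copy, and values of close paralogs are uncertain to that extent.

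Total RNA of cells labelled SH-SY5Y, a human neuroblastoma line, was measured on 9 arrays, 3 for each of 3 groups. The groups were cells without okadaic acid, cells exposed to 20 nM okadaic acid and cells exposed to 60 nM okadaic acid, each for 12 h in medium with reduced serum. Okadaic acid is a toxin of marine dinoflagellates that blocks protein phosphatases acting on serine and threonine. For the arrays grouped here as 60 nM, 1 label field gives 20 nM, whereas the source name, the title code and the stated design give 60 nM. The labels name 3 biological replicates per group and do not say whether each was its own culture, and the p-values cover only the spread among these arrays, which may be technical.

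All levels below are log2 of the deposited intensity. A gene was counted above background where a group mean exceeded 5.82, which is the 95th percentile of the pooled values of 23 background probe sets. By that measure 172 of the 242 genes (71.1%) were above background in at least 1 group, against 44.8% of all genes measured. In untreated cells 166 were above it, at 20 nM 166 and at 60 nM 169. A level depends on the probes of its probe set, so levels are compared between arrays and not between genes.

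The cell type was checked with marker genes. Only 2 of 14 measured genes of noradrenergic neuroblastoma cells, GATA3 and GATA2, were above background, and the untreated means of PHOX2A (3.49), HAND2 (4.97), TH (4.57) and DBH (4.22) were below it. Of 7 genes of the mesenchymal neuroblastoma state 6 were above background, among them VIM at 11.51, CD44 at 10.48 and FN1 at 9.17 in untreated cells. Of 6 epithelial genes the keratins KRT8 (13.34), KRT18 (12.56) and KRT19 (6.375) were also above it, while EPCAM, CDH1 and CLDN4 were not. No measured leukocyte gene (0 of 3) and no measured Schwann cell gene (0 of 2) exceeded background. Thus 12 of the 14 noradrenergic genes were at background in every group, among them the enzymes of catecholamine synthesis, and the samples are called by their label only. Some of these markers changed at 60 nM, beside the zinc finger genes. Of the mesenchymal list CD44 (log2 difference 1.04 against untreated cells), SNAI2 (0.81) and FN1 (0.52) were higher, and NOTCH2 (-0.20) and PRRX1 (-0.32, below background) lower. Of the noradrenergic list GATA2 (0.37) and ISL1 (0.47, below background) were higher and GATA3 (-0.23) lower, by limma with adjusted p under 0.05 in each of these 8. None (0) of the epithelial, leukocyte and Schwann cell genes was called, and at 20 nM no marker was called (0). The part of these marker changes in the zinc finger results was not tested.

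Arrays of 1 group had correlations of 0.995 to 0.999 over all genes. Untreated replicate 3 and 20 nM replicate 2 were among the arrays that stood apart for the zinc finger genes. Untreated replicate 3 was the lowest of its group for 106 of the 172 genes above background (61.6%), compared with 34.2% of all genes above background. The 20 nM replicate 2 was the highest of its group for 145 of them (84.3%), compared with 67.8% of all. Other arrays departed as well. Untreated replicate 1 was the highest of its group for 58.1% of them, against 31.9% of all. The 20 nM replicate 1 was the lowest of its group for 58.7%, against 33.7% of all. Counts of changed genes are also given without untreated replicate 3 and 20 nM replicate 2, a choice that was not planned. Below, these are the 2 arrays that stood apart.

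RefSeq promoters, each from 250 bases before to 50 bases after the listed gene start in the human assembly GRCh38.p14, were held for 204 of the 242 genes. The letters CGGAAG, the core bound by ETS factors, occurred on either strand in 126 of them (61.8%), against 29.7% of 15843 protein-coding genes with a promoter, 49.5% of ZNF genes elsewhere and 28.4% of other chromosome 19 genes. The letters CCAAT, the core bound by the factor NF-Y and chosen after the sequences had been seen, occurred in 55.4%, against 42.1% of protein-coding genes. CGGAAG and CCAAT cannot overlap on either strand. Of the other letters searched on both strands, AAGATGGC (the YY1 site, which can share its AAG with CGGAAG) stood in 6.86% against 4.66% of protein-coding genes. TGACGTCA, the cyclic AMP response element, stood in 3.92% against 3%, TGANTCA, the AP-1 site, in 6.86% against 8.04%, and the palindromic NRF1 site in 3.43% against 1.99%. A match is a string of letters and no measured binding site.

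The first 4 promoters belong to genes of 1 cluster that were higher at 60 nM. The next 3 belong to another cluster, in which ZNF430 rose, ZNF43 fell and ZNF675 did not pass the test, and the last is that of ZNF358, the gene with the largest fall. Each line gives the 250 bases before the gene start, 5′ to 3′ on the gene's strand, and capitals mark CCAAT or CGGAAG on either strand.
ZNF443: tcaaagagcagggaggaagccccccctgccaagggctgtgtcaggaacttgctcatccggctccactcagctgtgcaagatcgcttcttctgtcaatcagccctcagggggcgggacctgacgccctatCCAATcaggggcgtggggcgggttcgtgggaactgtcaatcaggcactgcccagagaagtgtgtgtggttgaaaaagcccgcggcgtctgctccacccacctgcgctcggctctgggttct
ZNF799: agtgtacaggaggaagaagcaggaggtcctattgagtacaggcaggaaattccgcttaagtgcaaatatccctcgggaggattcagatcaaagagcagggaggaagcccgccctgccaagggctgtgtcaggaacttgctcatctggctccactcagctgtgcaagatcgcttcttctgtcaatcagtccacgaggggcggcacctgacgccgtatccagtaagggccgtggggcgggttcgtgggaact
ZNF823: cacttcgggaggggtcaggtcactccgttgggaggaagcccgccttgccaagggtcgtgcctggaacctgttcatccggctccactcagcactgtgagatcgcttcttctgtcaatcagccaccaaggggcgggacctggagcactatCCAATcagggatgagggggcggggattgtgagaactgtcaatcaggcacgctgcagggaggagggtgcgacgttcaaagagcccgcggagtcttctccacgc
ZNF878: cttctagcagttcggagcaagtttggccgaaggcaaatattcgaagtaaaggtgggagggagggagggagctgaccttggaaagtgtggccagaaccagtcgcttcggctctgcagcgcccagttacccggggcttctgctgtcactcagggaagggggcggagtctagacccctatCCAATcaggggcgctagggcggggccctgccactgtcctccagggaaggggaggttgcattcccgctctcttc
ZNF430: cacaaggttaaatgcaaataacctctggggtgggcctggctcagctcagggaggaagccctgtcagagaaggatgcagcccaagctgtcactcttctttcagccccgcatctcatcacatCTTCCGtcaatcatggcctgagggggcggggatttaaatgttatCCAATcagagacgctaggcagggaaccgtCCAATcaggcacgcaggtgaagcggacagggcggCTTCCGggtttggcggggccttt
ZNF43: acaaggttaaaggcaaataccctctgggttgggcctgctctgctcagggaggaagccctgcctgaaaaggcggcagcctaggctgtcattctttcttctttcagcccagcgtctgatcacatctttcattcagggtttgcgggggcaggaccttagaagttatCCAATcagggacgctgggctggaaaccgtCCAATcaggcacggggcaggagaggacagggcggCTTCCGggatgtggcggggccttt
ZNF675: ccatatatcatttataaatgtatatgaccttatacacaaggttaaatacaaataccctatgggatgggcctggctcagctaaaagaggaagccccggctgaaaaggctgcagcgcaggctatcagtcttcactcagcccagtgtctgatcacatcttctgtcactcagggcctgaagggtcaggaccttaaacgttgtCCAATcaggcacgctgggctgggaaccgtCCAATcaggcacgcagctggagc
ZNF358: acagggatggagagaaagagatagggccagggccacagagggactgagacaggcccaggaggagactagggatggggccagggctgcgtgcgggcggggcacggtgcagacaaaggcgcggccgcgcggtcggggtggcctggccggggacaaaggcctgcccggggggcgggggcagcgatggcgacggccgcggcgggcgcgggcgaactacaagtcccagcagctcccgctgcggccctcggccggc
The ZNF443 promoter lies at chr19:12441022-12441271 on the minus strand, that of ZNF799 at chr19:12401272-12401521 on the minus strand, that of ZNF823 at chr19:11738947-11739196 on the minus strand and that of ZNF878 at chr19:12052962-12053211 on the minus strand. Those of the other cluster lie at chr19:21020407-21020656 on the plus strand (ZNF430), chr19:21836183-21836432 on the minus strand (ZNF43) and chr19:23687213-23687462 on the minus strand (ZNF675). The ZNF358 promoter lies at chr19:7515853-7516102 on the plus strand. Over locally aligned bases of the 300-base windows, ZNF443 and ZNF799 were 93.4% identical (211 bases), ZNF443 and ZNF823 85.3% (258 bases) and ZNF443 and ZNF878 80.2% (207 bases). ZNF799 and ZNF878 were 73.4% identical and ZNF823 and ZNF878 75.3%. With genes of the other cluster, ZNF878 was 79.9% identical for ZNF43 (179 bases), 74.8% for ZNF430 (250 bases) and 73.8% for ZNF675 (164 bases). ZNF878 thus did not stand closer to its own cluster in each pair. ZNF430 and ZNF43 were 85.2% identical over 291 bases, so that a gene that rose and a gene that fell had promoters as alike as those of ZNF443 and ZNF823. ZNF443 and ZNF358 aligned at 72.7% over 150 bases. ZNF675 holds 1 CTTCCG among the 50 bases after its start, which are not shown. CCAAT stood in a listed promoter of 23 of 24 genes of the first cluster (ZNF653 to ZNF791) and of 27 of 27 of the second (ZNF101 to ZNF254). CGGAAG stood in a listed promoter of 9 and 21 of these genes. Genes with CGGAAG had a median log2 difference of 0.04 between 60 nM and untreated cells (126 genes), and genes without it 0.03 (78 genes). By limma with adjusted p under 0.05, 9 genes with it were higher and 3 lower, and 10 without it were higher and 7 lower. A link between these letters and the change was not tested.

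At 60 nM okadaic acid, 35 of the 242 genes changed against untreated cells at a Benjamini-Hochberg adjusted p under 0.05 in limma, fitted over all genes. Of these 23 were higher and 12 lower, and no change reached 2-fold. Among all genes tested 21.2% were called, 7.94% higher and 13.2% lower, beside 14.5% of the zinc finger genes, 9.5% higher and 4.96% lower. Their median log2 difference was 0.04, against 0.00 for all genes, and the differences ran from -0.78 (ZNF358) to 1.18 (ZNF146, not called). Of the 35 called genes 9 had both group means below background. Without the 2 arrays that stood apart 21 were higher and 13 lower (14.05%, against 19.45% of all genes tested). Of these 18 and 7 were among the original calls. The count of rises was 9 without untreated replicate 2, 12 without untreated replicate 3, 8 without 60 nM replicate 1 and 15 without 60 nM replicate 3. The count of falls was 5 without untreated replicate 2 and 5 without 60 nM replicate 2. Fewer of all genes tested were called in these fits as well. Their share was 16.3% without untreated replicate 2 and 18.6% without untreated replicate 3. It was 17.3%, 17.1% and 16.8% without 60 nM replicates 1, 2 and 3. With a covariate for the chromosome score that is described further on, 6 were higher and 5 lower (4.55%, against 11.5% of all genes tested).

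Taken by overlap alone, the 3 arrays at 60 nM lay wholly above or below the 3 untreated arrays for 92 of the 242 genes, 65 above and 27 below. That is 38% of them, against 33.3% of all genes tested, 14.2% above and 19.2% below. Between groups of bulk samples, fewer transcripts per cell and fewer cells with the transcript cannot be told apart.

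Among the rises measured above background, ZNF829, a KRAB zinc finger gene, moved most. Its untreated arrays read 7.08, 6.78 and 6.45, its 20 nM arrays 6.84, 7.34 and 7.03, and its 60 nM arrays 7.72, 7.39 and 7.57. All 60 nM arrays lay above all others, and the 60 nM mean was 1.73-fold the untreated mean (log2 difference 0.79 ± 0.19 SE, adjusted p = 0.0229). The KRAB gene ZNF468 read 10.02, 9.64 and 9.37 in untreated cells and 10.47, 10.31 and 10.55 at 60 nM, with no overlap (0.77 ± 0.17, adjusted p = 0.0146). Its 20 nM arrays, at 9.73, 10.02 and 9.95, lay among the untreated values. The call of ZNF829 was lost in 8 of 23 alternative fits, 4 of them among the 9 that left out 1 array, and that of ZNF468 in 7 of 23, 3 of them among the 9.

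ZNF430, also a KRAB gene, rose from 10.11, 9.76 and 9.45 to 10.61, 10.46 and 10.40, a 1.64-fold change (0.72 ± 0.19, adjusted p = 0.033). ZNF28 rose from 8.65, 8.43 and 8.04 to 9.09, 8.95 and 8.96 (0.62 ± 0.18, adjusted p = 0.0456). In both genes untreated replicate 3 was the lowest array, and both calls were lost in 11 of 23 alternative fits. ZNF841 rose by 0.60 and ZNF528 by 0.56, with adjusted p of 0.0332 and 0.0254, and these lost their calls in 9 and 8 of 23.

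A second set of rises had close replicates. ZNF823 read 6.80, 6.86 and 6.70 in untreated cells, 6.70, 6.90 and 6.90 at 20 nM and 7.29, 7.33 and 7.64 at 60 nM, which is 1.55-fold (0.64 ± 0.10, adjusted p = 0.00429). ZNF443, a KRAB gene named above for its promoter, read 5.57, 5.63 and 5.70 untreated and 6.20, 6.18 and 6.08 at 60 nM (0.52 ± 0.05, adjusted p = 0.000338). Since its untreated arrays were all below background, the change is at least 1.26-fold. ZNF569 read 5.56, 5.44 and 5.31 untreated and 5.90, 6.07 and 5.95 at 60 nM (0.54 ± 0.08, adjusted p = 0.00231), at least 1.11-fold by the same bound. These 3 calls stood in all fits that left out 1 array. ZNF440 rose from 6.73, 6.76 and 6.58 to 7.42, 7.07 and 7.18 (0.54 ± 0.15, adjusted p = 0.0414), and its call was lost in 7 of 9 such fits.

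**Figure D1:**
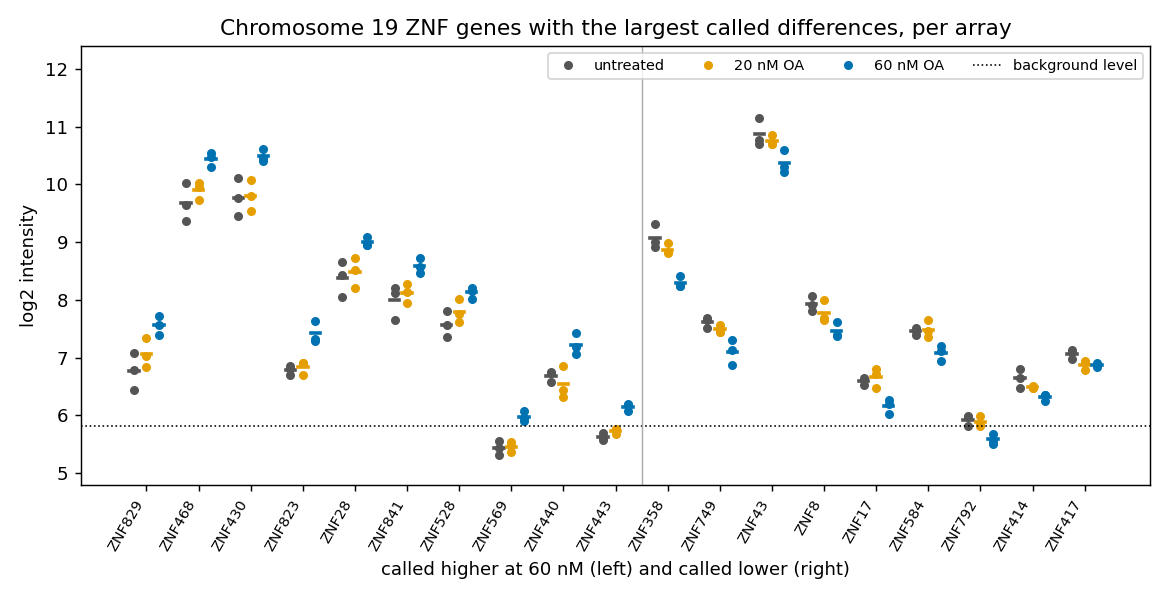
Log2 intensity of the 10 genes with the largest called rise and the 9 with a called fall at 60 nM, among those with non-overlapping groups and a mean above background. Points are the 9 arrays, short bars are group means, and the dotted line is the background level of 5.82. In every gene shown the 60 nM points lie on one side of the untreated points, and the 20 nM points overlap the untreated ones in all but ZNF417.

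ZNF358 had the largest fall. Its untreated arrays read 8.91, 9.01 and 9.31, its 20 nM arrays 8.82, 8.98 and 8.82 and its 60 nM arrays 8.41, 8.24 and 8.24. The 60 nM arrays lay below all 6 others, and the level was 1.72-fold lower than in untreated cells (-0.78 ± 0.11, adjusted p = 0.00206). The fall was called in all 9 fits that left out 1 array.

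ZNF749 read 7.68, 7.66 and 7.51 in untreated cells and 7.30, 6.87 and 7.13 at 60 nM (-0.52 ± 0.11, adjusted p = 0.0133). ZNF43, a KRAB gene of the group duplicated around ZNF91, read 11.15, 10.77 and 10.70 untreated and 10.60, 10.22 and 10.30 at 60 nM (-0.50 ± 0.14, adjusted p = 0.0464). Its gap between groups was small next to the spread within them, and its call was lost in 7 of 9 fits that left out 1 array. ZNF8, a KRAB gene, fell from 7.82, 7.91 and 8.06 to 7.40, 7.38 and 7.63 (-0.46 ± 0.11, adjusted p = 0.0256).

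ZNF17, ZNF584, ZNF792, ZNF414 and ZNF417 also fell, by 0.43, 0.38, 0.34, 0.32 and 0.20 on the log2 scale, with adjusted p between 0.0112 (ZNF792) and 0.0399 (ZNF417). ZNF792 ended below background on all 60 nM arrays, so its fall is at least 1.08-fold. Leaving out 1 array at a time ended the call of ZNF417 in 6 of 9 fits, of ZNF584 and ZNF8 in 4 of 9, of ZNF17 and ZNF414 in 3 of 9, of ZNF749 in 1 of 9 and of ZNF792 in none (0). ZNF417 differed from the rest in that its 20 nM arrays (6.78, 6.94 and 6.92) already lay below its untreated arrays (7.12, 7.1 and 6.98), a difference that was not called (adjusted p = 0.742).

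In the order of the RefSeq gene table, in which all 242 genes were found, 222 of them formed 10 clusters of at least 5 genes and 20 lay outside. The clusters are named by their first and last gene. Direction differed from cluster to cluster, as given next, without a test between clusters. The calls changed in fits with the chromosome score described further on, which differs between the groups, and its part was not tested. Of all genes tested these fits called 11.5% and 10.1%, against 21.2% in the main fit. With the score over all genes as a covariate, rises numbered 3 in ZNF653 to ZNF791, 1 in ZNF565 to ZNF573, 0 in ZNF577 to ZNF331 and 1 in ZNF101 to ZNF254. With the score over genes above background they numbered 2, 0, 0 and 0. Falls in ZNF787 to ZNF446 numbered 1 and 2. The medians of the clusters with rises, in the order just given, were 0.08, 0.06, 0.14 and 0.21 in the main fit. They were 0.07, -0.03, 0.03 and 0.07 with the score over all genes. With the score over genes above background they were 0.06, -0.05, -0.03 and -0.10.

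The cluster ZNF653 to ZNF791 held 27 genes, of which 23 had a positive difference at 60 nM, 8 were called higher and none (0) lower. The 8 were ZNF823, ZNF441, ZNF440, ZNF878, ZNF136, ZNF442, ZNF799 and ZNF443. Leaving out 1 array at a time gave 4 to 8 rises and no fall, and leaving out the 2 arrays that stood apart gave 6. ZNF878 had the largest difference of the cluster, from 4.86, 4.73 and 4.67 to 5.74, 5.44 and 5.56 (0.83 ± 0.09, adjusted p = 0.000626). It was called in all 22 alternative fits that tested it, but both group means were below background, so no fold is given. ZNF136, a KRAB gene, rose from 7.14, 6.99 and 6.93 to 7.62, 7.36 and 7.48 (0.47 ± 0.12, adjusted p = 0.0274), and ZNF799 from 5.20, 5.28 and 5.21 to 5.60, 5.48 and 5.51 (0.30 ± 0.04, adjusted p = 0.00164), below background throughout. As several of these genes are near copies, probes may bind more than 1 of them, and the 8 calls may not be independent of each other.

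The cluster ZNF565 to ZNF573 held 25 genes, 17 with a positive difference, 5 called higher and 0 lower. These were ZNF829, ZNF569, ZNF529, ZNF570 and ZNF565. ZNF529 rose from 8.32, 8.16 and 8.15 to 8.62, 8.47 and 8.53 (0.33 ± 0.07, adjusted p = 0.0152). The largest difference of the cluster belonged to ZNF146, a gene whose protein consists of fingers without a KRAB domain, at 11.83, 11.00 and 9.97 in untreated cells, 11.00, 11.79 and 11.36 at 20 nM and 12.10, 12.08 and 12.16 at 60 nM. The 60 nM arrays lay close together above the rest, but the untreated arrays spread over more than the difference between means, and the test was not passed (1.18 ± 0.44, adjusted p = 0.113).

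In the cluster ZNF577 to ZNF331, 33 of 38 genes had a positive difference, 4 were called higher (ZNF841, ZNF528, ZNF28 and ZNF468) and 0 lower. No rise was called there (0) without untreated replicate 2 or without 60 nM replicate 1. ZNF480 had its largest difference and was not called: it read 7.98, 7.31 and 7.05 untreated and 8.46, 8.20 and 8.42 at 60 nM (0.92 ± 0.29, adjusted p = 0.0664).

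The cluster ZNF101 to ZNF254 had the highest median difference of the 10 clusters, 0.21 over 36 genes, and 27 positive differences, yet 3 genes were called higher (ZNF430, ZNF676 and ZNF729) and 1 lower (ZNF43). Untreated replicates differed in this cluster: its median over genes above background was 8.61, 8.33 and 8.14 in the 3 untreated arrays, against 8.82, 8.70 and 8.66 at 60 nM. The 20 nM arrays had medians of 8.06, 8.66 and 8.34. ZNF675, whose protein was reported to bind the signalling adaptor TRAF6, had the largest difference, with 8.54, 8.32 and 7.93 untreated, 7.47, 8.71 and 8.39 at 20 nM and 9.18, 9.06 and 8.82 at 60 nM. The 60 nM arrays lay above all others, but the gene was not called (0.76 ± 0.32, adjusted p = 0.161).

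In the cluster at the end of the long arm, ZNF787 to ZNF446, the called genes were mostly lower. Of 50 genes 24 had a positive difference, 5 were called lower (ZNF17, ZNF749, ZNF417, ZNF8 and ZNF584) and 1 higher (ZNF542P, an annotated pseudogene). ZNF542P rose from 7.29, 7.37 and 7.24 to 7.77, 7.59 and 7.75 (0.40 ± 0.06, adjusted p = 0.00349). Leaving out 1 array at a time gave 1 to 6 falls and 1 or 2 rises in this cluster.

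The smaller groups held few calls. ZNF222 was higher and ZNF233 lower among the 19 genes from ZNF283 to ZNF180, both below background. ZNF599 and ZNF792 were lower among the 5 genes from ZNF302 to ZNF792. ZNF599 read 4.58, 4.51 and 4.56 untreated and 4.12, 4.17 and 4.18 at 60 nM, the smallest adjusted p of the 242 genes (0.000105), but below background. ZNF554 was lower among the 5 genes from ZNF554 to ZNF77, and its call was lost in 10 of 22 alternative fits. No gene (0) was called among the 10 from ZNF317 to ZNF812P or the 7 from ZNF628 to ZNF580, where ZNF121 (0.26, adjusted p = 0.519) and ZNF581 (-0.39, adjusted p = 0.09) had the largest differences. Outside the clusters ZNF296 was higher, ZNF358 and ZNF414 lower. The called genes that the rule for named genes does not take were added to complete these counts after their values had been seen.

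**Figure D2:**
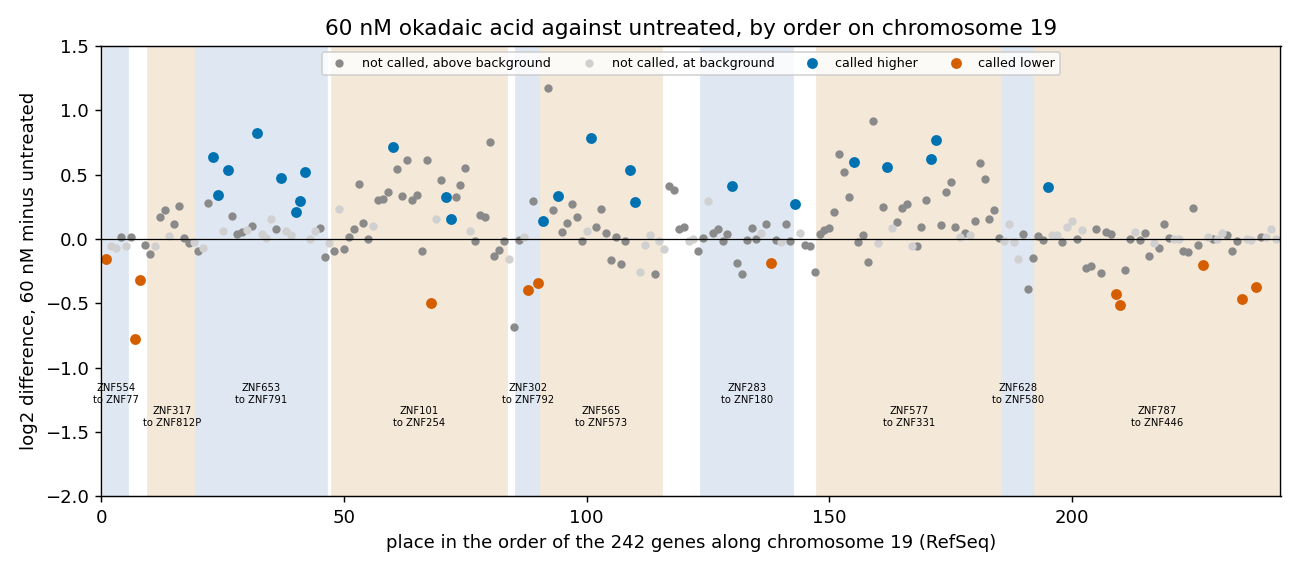
Log2 difference between 60 nM and untreated cells for the 242 genes, in their order along chromosome 19. Shaded bands are the 10 clusters, labelled by first and last gene, blue points are called higher, orange points called lower, dark grey points not called and above background, and light grey points not called and at background. Of the 23 blue points 8 lie in the band from ZNF653 to ZNF791, and 5 of the 12 orange points lie in the last band.

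Members with a known target or regulation were described whatever their change. ZNF91 and ZNF93, KRAB genes whose proteins repress SVA and L1 retrotransposons in human cells, differed by 0.17 ± 0.27 (adjusted p = 0.801) and 0.08 ± 0.09 (adjusted p = 0.679) at 60 nM. ZNF91 read 10.80, 10.12 and 9.63 in untreated cells and 10.32, 10.44 and 10.31 at 60 nM, so its untreated arrays spread widely around the 60 nM values. ZNF274, whose protein binds the ends of zinc finger genes themselves and recruits SETDB1 there, read 5.99, 5.99 and 6.08 untreated and 5.99, 5.79 and 5.99 at 60 nM (-0.10 ± 0.08, adjusted p = 0.51). The imprinted gene ZNF331 lay between 6.36 and 6.39 on all 9 arrays (0.01 ± 0.02, adjusted p = 0.859). ZNF382, a KRAB gene reported as silenced in tumours, differed by 0.05 ± 0.08 (adjusted p = 0.804). ZNF274, ZNF331 and ZNF382 are among 128 of the 242 genes with 3 or more arrays at 1 identical value, which can make an SE too small.

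The brightest probe sets of untreated cells were those of ZNF888 (14.58 ± 0.42, SD, n = 3), ZNF738 (11.94 ± 0.20), ZNF724 (11.29 ± 0.57), ZNF121 (11.28 ± 0.33) and ZNF146 (10.93 ± 0.93). None of these 5 was called at 60 nM. Their differences were 0.37 for ZNF888, 0.30 for ZNF738, 0.19 for ZNF724, 0.26 for ZNF121 and 1.18 for ZNF146, with adjusted p of 0.363, 0.0832, 0.806, 0.519 and 0.113. ZNF738 came nearest, with 12.08, 12.03 and 11.71 untreated and 12.32, 12.16 and 12.24 at 60 nM, which do not overlap. In all 5 genes untreated replicate 3 was the lowest untreated array.

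At 20 nM okadaic acid none of the 242 genes (0) was called against untreated cells, by limma in this fit and in all 23 alternative fits. The background was 0.0223% of all genes tested, or 5 genes. At an unadjusted p under 0.05 there were 3, namely ZNF417 (-0.19 ± 0.06), ZNF542P (0.17 ± 0.06) and ZNF729 (-0.08 ± 0.03), with adjusted p of 0.742, 0.933 and 0.976. These are 1.24% of the 242, against 4.98% of all genes tested. Without the 2 arrays that stood apart 34 had an unadjusted p under 0.05, and still none (0) was called. The groups did not overlap for 9 genes (3.72%), against 6.01% of all genes tested. Differences ran from -0.29 to 0.45 with a median of 0.01. The median SE of a difference was 0.08, so small shifts of single genes could not be resolved with 3 arrays.

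Between the 2 doses, 20 genes changed, 14 higher and 6 lower at 60 nM (8.26%, against 17.8% of all genes tested, with 6.94% higher and 10.9% lower). This comparison shares its 60 nM arrays with the one against untreated cells, so its calls are not independent of those. The groups did not overlap for 68 of the 242 genes (28.1%), against 31.2% of all genes tested. Of the 14 rises 13 were also called against untreated cells, and so were all 6 falls. The one other rise was ZNF849P, an annotated pseudogene, at 5.94, 6.47 and 6.04 for 20 nM and 6.99, 6.86 and 6.76 for 60 nM (0.72 ± 0.20, adjusted p = 0.0495). Its untreated arrays, at 6.62, 6.42 and 5.93, lay below those of 60 nM without a call (adjusted p = 0.111).

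Against 20 nM, ZNF440 was higher by 0.69 ± 0.15 (adjusted p = 0.0182), ZNF430 by 0.68 ± 0.19 (adjusted p = 0.0464), ZNF823 by 0.58 ± 0.10 (adjusted p = 0.00788) and ZNF569 by 0.51 ± 0.08 (adjusted p = 0.00369). ZNF358 was lower by 0.58 ± 0.11 (adjusted p = 0.00989), ZNF17 by 0.51 ± 0.10 (adjusted p = 0.0104), ZNF584 by 0.41 ± 0.09 (adjusted p = 0.0202), ZNF749 by 0.39 ± 0.11 (adjusted p = 0.0485) and ZNF792 by 0.30 ± 0.07 (adjusted p = 0.024). With the dimmer group at background, the changes of ZNF569 and ZNF792 are at least 1.11-fold and 1.05-fold. The call of ZNF749 was lost in 15 of 23 alternative fits, 8 of them among the 9 that left out 1 array. Leaving out 1 array also ended the calls of ZNF430 and ZNF849P in 6 of 9 fits each, of ZNF440 in 4 and of ZNF584 and ZNF792 in 3 each. For these genes the 20 nM mean lay closer to the untreated than to the 60 nM mean. Without the 2 arrays that stood apart 42 genes were higher and 4 lower, which is 19% of the 242. Over all genes tested that fit called 20.9%, 2016 higher and 2676 lower. Without 20 nM replicate 2 alone 25 zinc finger genes were higher and without untreated replicate 3 alone, which enters through the shared spread, 22. Without 20 nM replicate 1, 20 nM replicate 3 or 60 nM replicate 1 the rises numbered 7, 7 and 6, and without 20 nM replicate 1 the falls numbered 3. Of all genes tested 17% were called without 20 nM replicate 2 and 20% without untreated replicate 3. Without 20 nM replicate 1, 20 nM replicate 3 or 60 nM replicate 1 the shares were 12.6%, 13.7% and 13.8%.

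The zinc finger genes were set beside other lists, over genes above background in a group. At 60 nM 17 of the 172 chromosome 19 zinc finger genes were higher and 9 lower (15.1% called), with a median difference of 0.06. Among all 10062 genes above background 41% were called, 14.9% higher and 26.1% lower, with a median of -0.04. Of 153 ZNF genes on other chromosomes 19 were higher and 30 lower, with a median of 0.01. Of 444 other genes of chromosome 19, 32 were higher and 145 lower, with a median of -0.16. The median size of a difference, taken without its sign, was 0.15 for the zinc finger genes of chromosome 19 and 0.24 for all genes, and the median SE 0.09 and 0.08. Of 17 zinc finger genes of chromosome 19 with other names (the ZFP, ZSCAN, ZIM, ZIK and ZBTB series with PEG3 and MZF1), 4 were above background. Of these 4, 0 were higher and 0 lower. Over all 17, at background or not, 0 were higher and 1 lower (5.88% called, against 21.2% of all genes tested). These lists were compared by description alone.

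**Figure D3:**
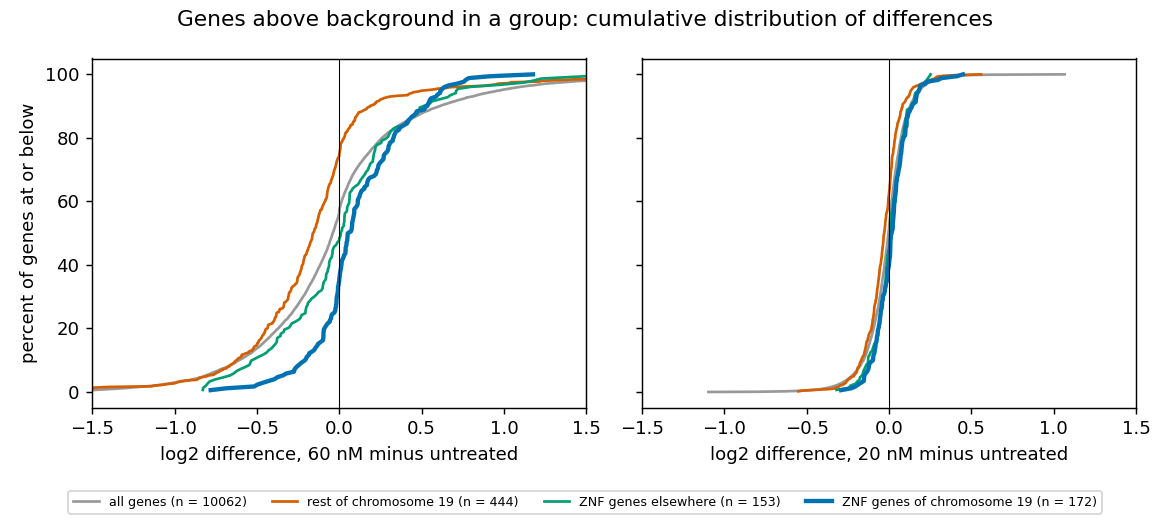
Cumulative distribution of log2 differences against untreated cells at 60 nM (left) and 20 nM (right), for genes above background in a group. Each line gives the percent of a list's genes at or below a difference, for 172 zinc finger genes of chromosome 19, 153 ZNF genes elsewhere, 444 other genes of chromosome 19 and all 10062 genes, and the horizontal axes end at -1.5 and 1.5. At 60 nM the zinc finger line lies to the right of that of the other chromosome 19 genes over most of its course, and at 20 nM the lines lie close together.

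A property of whole arrays differed between the groups. The median over genes above background on chromosomes 16, 17 and 22, less that on chromosomes 4, 5, 13 and 18, was 0.11, 0.23 and 0.49 on the untreated arrays, 0.26, 0.17 and 0.18 at 20 nM and -0.06, -0.06 and -0.02 at 60 nM. No gene of chromosome 19 enters this score. It was highest on untreated replicate 3, where the zinc finger genes had their lowest median (7.24, against 7.36 and 7.35 on the other untreated arrays), and it was lower on all 60 nM arrays than on all others. The zinc finger medians were 7.31, 7.51 and 7.35 at 20 nM and 7.41, 7.36 and 7.34 at 60 nM. The highest of them, 7.51 on 20 nM replicate 2, came with a score of 0.17. With the score taken over all genes as a covariate 6 zinc finger genes were higher and 5 lower at 60 nM and the median difference was -0.01. That is 4.55% of them, against 11.5% of all genes tested. With the score over genes above background 3 were higher and 6 lower (3.72%, against 10.1% of all genes tested), with a median of -0.02. Without a covariate the shares were 14.5% and 21.2%. The median SE of the zinc finger differences was 0.08 without a covariate and 0.10 and 0.11 with these. As the score differs between the groups, its part and that of okadaic acid cannot be told apart in these arrays.

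**Figure D4:**
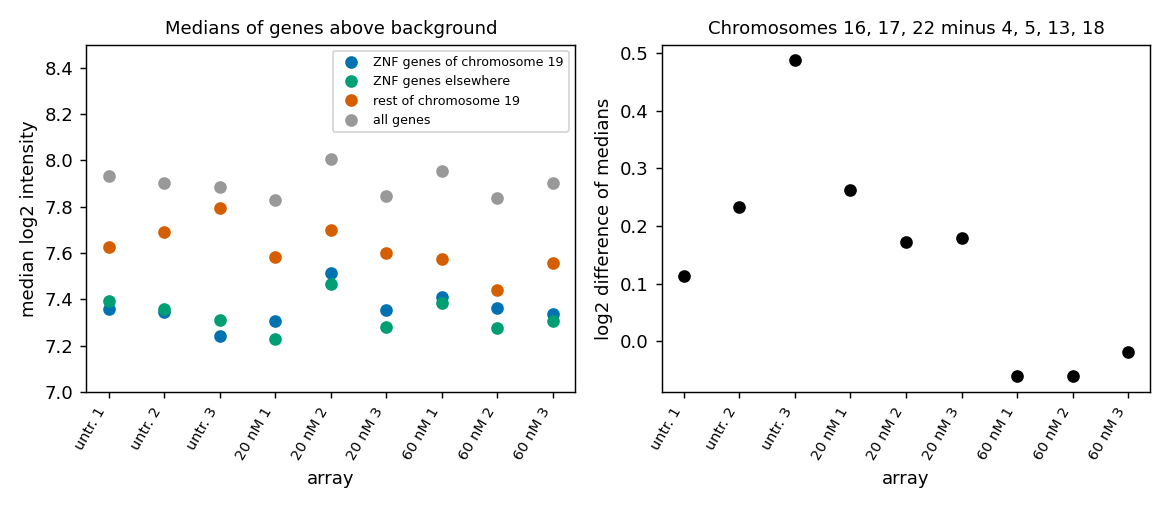
Left, median log2 intensity per array of genes above background in 4 lists. Right, the chromosome score per array, the median of genes above background on chromosomes 16, 17 and 22 less that on chromosomes 4, 5, 13 and 18. The zinc finger genes of chromosome 19 are lowest on untreated replicate 3 (7.24) and highest on 20 nM replicate 2 (7.51), and the score is highest on untreated replicate 3 (0.49) and lowest on the 60 nM arrays.

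Genes of KRAB cofactors and of heterochromatin were followed as a list of 37 measured genes. It holds TRIM28, SETDB1, HP1, NuRD, DNA methylation and HUSH genes, and 13 others (the histone methyltransferase genes SUV39H1, SUV39H2, EHMT1 and EHMT2, the SUMO pathway genes SUMO2, PIAS1 and SENP7, the chromatin genes SMARCAD1, ATRX and DAXX, and the DNA-binding factor genes CTCF, ZFX and YY1). At 60 nM 14 of the 37 were lower and 2 higher, and 3 of the falls (EHMT1, EHMT2 and SUMO2) belong to those 13. All but 1 of the genes (36) were above background, and of these 44.4% were called, 38.9% lower and 5.56% higher, with a median difference of -0.18. Among all genes above background 41% were called, 26.1% lower and 14.9% higher, with a median of -0.04. The share called was thus near that of all genes above background, while the share lower was larger and the share higher smaller. The lists were not matched for level. TRIM28 itself read 13.41, 13.63 and 14.00 untreated, 13.66, 13.41 and 13.41 at 20 nM and 13.13, 12.87 and 13.01 at 60 nM, and fell 1.6-fold (-0.68 ± 0.15, adjusted p = 0.0183). SETDB1 fell from 7.98, 8.02 and 8.23 to 7.79, 7.71 and 7.81 (-0.31 ± 0.08, adjusted p = 0.031). These 2 calls were lost in 7 and 12 of 23 alternative fits.

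The 4 further genes of the list, taken by smallest p, held their calls in all 23 alternative fits. UHRF1, which directs maintenance DNA methylation, fell from 9.42, 9.54 and 9.65 to 8.02, 7.85 and 7.90 (3.06-fold, adjusted p = 0.000166). DNMT1, the maintenance methyltransferase, fell from 12.22, 12.43 and 12.66 to 11.45, 11.33 and 11.39 (2.06-fold, adjusted p = 0.000632). RBBP4, a histone-binding subunit of NuRD and other complexes, fell from 13.78, 13.81 and 13.92 to 13.05, 12.89 and 12.89 (1.86-fold, adjusted p = 5.57e-05), and GATAD2B, a NuRD subunit, from 13.21, 13.30 and 13.51 to 12.71, 12.50 and 12.58 (1.67-fold, adjusted p = 0.000832). The 2 that rose were CBX3, an HP1 gene (0.39 ± 0.11, adjusted p = 0.0445), and the de novo methyltransferase gene DNMT3B (0.18 ± 0.05, adjusted p = 0.0289). TRIM28, UHRF1 and DNMT1 lie on chromosome 19 themselves. At 20 nM no gene of the list (0) was called.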

How the data were processed

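Per the submitters' processing notes the authors used RMA to correct background, normalize the arrays and summarise probes, while the version, annotation and build are not stated in the sources used here. The authors' deposited intensities are linear, whereas RMA usually yields log2 values, and log2 of them was taken here with no added constant. Such normalization makes arrays alike, so a shift shared by most genes would not be seen.

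Probe sets with 1 annotated symbol were kept, with the highest mean over the 9 arrays where a gene had several. Groups were compared by limma (version 3.58.1, R 4.3.3; lmFit, then eBayes with no trend). All 9 arrays entered 1 fit with 3 group means and a shared spread. Genes with a Benjamini-Hochberg adjusted p under 0.05 over 22465 genes are called. The functions were tested on simulated data. The number of arrays limits the precision.

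The genes, lists and tests were chosen with earlier results of these data known. Named genes were those with the largest called, non-overlapping change above background (10 and 10 at 60 nM against untreated, 5 and 5 in the other comparisons), the 5 of highest untreated mean, the gene of largest difference in each cluster, and ZNF91, ZNF93, ZNF274, ZNF331, ZNF382 and ZNF675. Of the cofactors these were TRIM28, SETDB1 and 4 more by smallest p. A cluster is a run of at least 5 genes with at most 5 other protein-coding genes between neighbours, in the RefSeq gene order of GRCh38.p14. The assembly served for names, order and promoters only. Protein features were not analysed here. Alternatives were other scalings, filters, spread models, arrays left out, the replicate number as a block and a chromosome score as covariate. Figures were drawn with matplotlib.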

Additional observations from a re-analysis of the deposited data

Results flagged for a closer look

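Among 9 probe sets of chromosome 19 that name a ZNF gene together with another gene, and were therefore in no comparison, 3 had all 60 nM arrays above all untreated arrays. These differences were not tested, and 14.2% of all genes tested lay wholly higher at 60 nM. The probe set shared by ZNF761 and TPM3P9 had a mean of 8.26 ± 0.17 (SD, n = 3) untreated and 8.60 ± 0.14 at 60 nM, a log2 difference of 0.338. For the probe set of ZNF321P, ZNF816 and their read-through transcript the means were 7.94 ± 0.15 and 8.10 ± 0.03, a difference of 0.157. For that of ZNF626 and ZNF100 they were 5.94 ± 0.09 and 6.05 ± 0.03, a difference of 0.104. The probe set cannot say which of its genes the signal comes from.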

How the results depend on the processing

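At 60 nM against untreated, the 23 rises became 38 after quantile normalization, 11 with the replicate block, 14 when arrays were shifted by their hybridisation controls and 8 to 28 when 1 array was left out. With rises and falls together, the first 3 of these settings called 21.5%, 7.85% and 6.61% of the zinc finger genes. Of all genes tested they called 23%, 16.9% and 10%, against 21.2% in the main fit. With 1 array left out that share was 16.3% to 21.3%. Without genes of repeated values there were 36 rises among the 114 zinc finger genes left. In that fit 41.2% of these were called higher or lower, against 45.1% of all 10101 genes left. The 12 falls became 2 with the hybridisation shift and 5 to 15 when 1 array was left out. With the chromosome score 6 rose and 5 fell, where 11.5% of all genes tested were called. With the score over genes above background these numbered 3 and 6, where that share was 10.1%. Relative to the median of the rest of chromosome 19 there were 88 and 3, with a median difference of 0.22. That setting shifts every gene of an array alike. Of all 22465 genes 4381 were then higher and 1690 lower (27%, against 37.6% of the zinc finger genes), with a median of 0.19. Without genes of repeated values the median was 0.23 over the 114 zinc finger genes left, against 0.01 over all 10101 genes left. Among all called zinc finger genes, ZNF554 turned direction at 60 nM against untreated, to 0.024 relative to the rest of chromosome 19 (adjusted p = 0.793). At 60 nM against 20 nM the 14 rises became 32, 0, 23, 8, 4, 25, 36, 42 and 4 (quantile normalization, hybridisation shift, genes above background only, replicate block, chromosome score, no repeated values, relative to the rest of chromosome 19, without the 2 arrays that stood apart, and the score over genes above background), and 6 to 25 with 1 array left out. The 6 falls became 12, 13, 1, 3 and 2 (quantile normalization, hybridisation shift, chromosome score, relative to the rest of chromosome 19, and the score over genes above background), and 3 to 6 with 1 array left out. The fits of genes above background only and of no repeated values tested 172 and 114 zinc finger genes. They called 17.4% and 27.2% of these, against 42% and 40.7% of all genes left. The other fits called 18.2%, 5.37%, 4.96%, 2.07%, 16.1%, 19% and 2.48% of the zinc finger genes, in the order given for the rises. Of all genes tested they called 21.2%, 13.8%, 12.7%, 7.11%, 17.4%, 20.9% and 9.98%. With 1 array left out 12.6% to 20% of all genes were called, against 17.8% in the main fit. The median became -0.26, 0.16 and 0.13 (hybridisation shift, no repeated values, relative to the rest of chromosome 19), and the hybridisation shift moved the 20 nM median against untreated to 0.30. Over all genes tested in those fits the medians were -0.28, -0.002, 0.11 and 0.29. At 60 nM against 20 nM that shift turned 4 of the 14 rises, ZNF296 (to -0.067), ZNF542P (-0.048), ZNF729 (-0.046) and ZNF799 (-0.013), with adjusted p from 0.771 to 0.957. The causes were not tested. The hybridisation controls of single arrays ran from 9.18 to 9.93 on the log2 scale, so that shift adds differences between arrays to every gene. Deviations of arrays with the same replicate number correlated at -0.673 to 0.117 across genes, so the numbers were not taken as pairs, and the block also moved the falls against untreated to 8. Of 39 called results of named genes, 39 were kept with trend and robust estimation, 38 after quantile normalization, 29 without the 2 arrays that stood apart, 21 with the replicate block and 8 with the score over genes above background. Genes with no group mean above background have the least certain differences.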

Other observations

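Some genes missed the threshold although their groups of arrays did not overlap, and they were picked after their values had been seen. ZNF100, a KRAB gene of the cluster ZNF101 to ZNF254, differed by 0.61 at 60 nM against untreated cells (adjusted p = 0.0517), and ZNF615 of the cluster ZNF577 to ZNF331 by 0.66 (adjusted p = 0.0793). ZNF507, which lies outside the clusters, read 8.82, 8.46 and 7.98 in untreated cells, 8.01, 8.75 and 8.05 at 20 nM and 7.82, 7.63 and 7.76 at 60 nM, a difference of -0.69 (adjusted p = 0.119). In all 3 genes the untreated arrays were spread with replicate 3 at the bottom.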
